A study of Mus musculus with 4 samples.

Results

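The Myc, Max and Mxd network was followed in mouse cardiac mesenchymal progenitors (CMPs) carrying 4 reprogramming factors, Oct4, Sox2, Klf4 and c-Myc (OSKM). CMPs are Sca-1+ cells taken from the hearts of adult C57BL/6 mice. RNA came from CMPs without any treatment (CMP control, labelled day 0) and from CMPs with OSKM (OSKM-CMPs) at days 4, 6 and 8. The factors were delivered by Sendai virus, an RNA virus, and the OSKM-CMPs were then moved to a reprogramming medium without leukemia inhibitory factor. Each condition was 1 Agilent array in the Cy3 channel, so no difference has a replicate check and no p-value is given. The network was taken as 10 genes, Myc, Mycn, Mycl1, Max, Mxd1, Mxd3, Mxd4, Mxi1, Mnt and Mlx, and the probes were those whose gene name is 1 of these symbols or its newer synonym (Mycl for Mycl1). Together they had 12 of the 55681 probes of an array. Of the 10 genes, 9 were well above background on at least 1 array, among 16648 such genes of 22220 named on the array.

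Myc, Mycn and Mycl1 encode Myc transcription factors, which bind DNA only as a pair with Max. Myc-Max pairs bind the E-box CACGTG and raise transcription of genes for ribosome assembly, metabolism and cell division. Proteins of the Mxd group (Mxd1, Mxd3, Mxd4 and Mxi1) and Mnt compete for Max, bind the same E-box and recruit Sin3 and histone deacetylases, which lower transcription. Mlx is a Max-like partner for Mxd1, Mxd4, Mnt and the glucose-responsive factor Mlxipl. In many cell types Myc is high in dividing cells and Mxd1 rises as cells leave the cycle and differentiate. c-Myc is also 1 of the delivered factors, and the medium, the virus, the time in culture and the factors all separated the OSKM-CMPs from the single control, so they cannot be told apart here.

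Myc, Mycn and the repressor Mxd3 were lower in OSKM-CMPs on each day, Mxd1 was higher, and the partners Max and Mlx and the repressors Mxd4 and Mnt stayed within 2-fold of the control. At day 8 Myc was 8.44-fold, Mxd3 11.0-fold and Mycn at least 85.1-fold lower than in the CMP control, while Mxd1 was 3.24-fold higher. A gene was counted as changed at 2-fold or more. At day 4 1 of the 9 measured genes was higher (Mxd1) and 3 were lower (Myc, Mycn and Mxd3), where 12.1% of all measured genes were higher and 9.57% lower. The same 4 genes were counted at day 6, beside 13.0% higher and 11.5% lower of all genes. Mycl1 joined the lower ones at day 8, which gave 1 higher and 4 lower beside 14.4% and 11.6%. From day 4 to day 8, 0 were higher and 3 lower (Mxd3, Mycl1 and Mycn, the last below background on both arrays), beside 4.93% and 4.10% of all genes. Mycn was above background only in the control and Mycl1 only in the control and at day 4, so both passed the filter only through arrays where they were high.

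Signals below are the processed Cy3 signals, in the order control, day 4, day 6 and day 8. Log2 changes are differences after each array was scaled to its own 75th percentile, which lay between 388.5 and 410.9 in signal. An error (±) is 1 SD from the error model of the scanner software. Spread between cultures or RNA preparations is not in it. The median change of all 16648 genes was -0.01 at day 4, -0.04 at day 6 and -0.03 at day 8.

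Myc was read by 1 probe in 2 spots, at chr15:61821417-61821476 (mm9, plus strand). The spots gave 889.1 and 858.9 in the control, 142.4 and 135.5 at day 4, 115.8 and 128.0 at day 6, and 106.5 and 112.1 at day 8. Every spot of the OSKM-CMPs was below both control spots, and the day 4 spots were above those of days 6 and 8. The change was -2.65 ± 0.15 at day 4, -2.91 ± 0.15 at day 6 and -3.08 ± 0.15 at day 8, so 86.1% of the day 8 change on the log2 scale was present at day 4. Myc then moved by -0.43 ± 0.15 from day 4 to day 8. Of the 16648 genes, 275 (1.65%) fell further than Myc at day 8.

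Mouse c-Myc was also a target of PCR in the study. The reverse primer is the opposite strand of bases 21 to 47 of the 60-base array probe, the only match between 36 primers and the 12 probes. The shared stretch is shown because array and PCR read the same bases of the mouse transcript there. It has no capitals, since no motif is marked.
Myc probe, bases 21 to 47: gaacagcttcgaaactctggtgcataa
The delivered c-MYC was followed in the study with primers for the human sequence. Whether the mouse probe reads the delivered sequence was not tested.

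Mycn, the paralog best known from the embryo and from neural tumours, had the largest fitted fall of the 9 genes. Its probe (chr12:12943193-12943252, mm9, minus strand) gave 835.3 in the control and 8.00, 4.26 and 3.68 at days 4, 6 and 8. The control was the only array on which it was above background. The 3 OSKM-CMP signals were not well above background, so the fall is a bound of at least 77.7-fold at day 4, at least 75.1-fold at day 6 and at least 85.1-fold at day 8. The lowest signal well above background, which sets these bounds, was between 10.4 and 11.6 on the 4 arrays. The fitted change at day 8 was -7.90 ± 0.98.

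Mycl1, a paralog found in dendritic cells among others, was dim from the start. Its probe (chr4:122679535-122679594, mm9, plus strand) gave 26.3, 23.1, 16.2 and 3.00, of which the last 2 were not well above background. The control and day 4 differed by -0.19 ± 0.30, which is within the error. At day 6 the fitted fall was 1.69-fold (-0.76 ± 0.37), from a signal that was not well above background, so it is no minimum. At day 8 the fall was 2.68-fold with the dim signal set to the lowest one well above background on that array. With the normexp background correction the change was only -0.18 at day 6 and -0.48 at day 8, both under 2-fold.

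Max, the shared partner, was bright on every array. Its signals were 5550, 7014, 7900 and 8494 (chr12:78038272-78038331, mm9, minus strand), the lowest in the control and the highest at day 8. The change from the control was 0.34 ± 0.20 at day 4, 0.45 ± 0.20 at day 6 and 0.54 ± 0.20 at day 8. With arrays scaled by their medians it was 0.27 at day 8. Neighbouring days of the OSKM-CMPs differed by less than their error, and 23.8% of all genes rose further at day 8. Max minus Myc, the gap between their day 8 changes, was 3.61 ± 0.25.

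**Figure D1:**
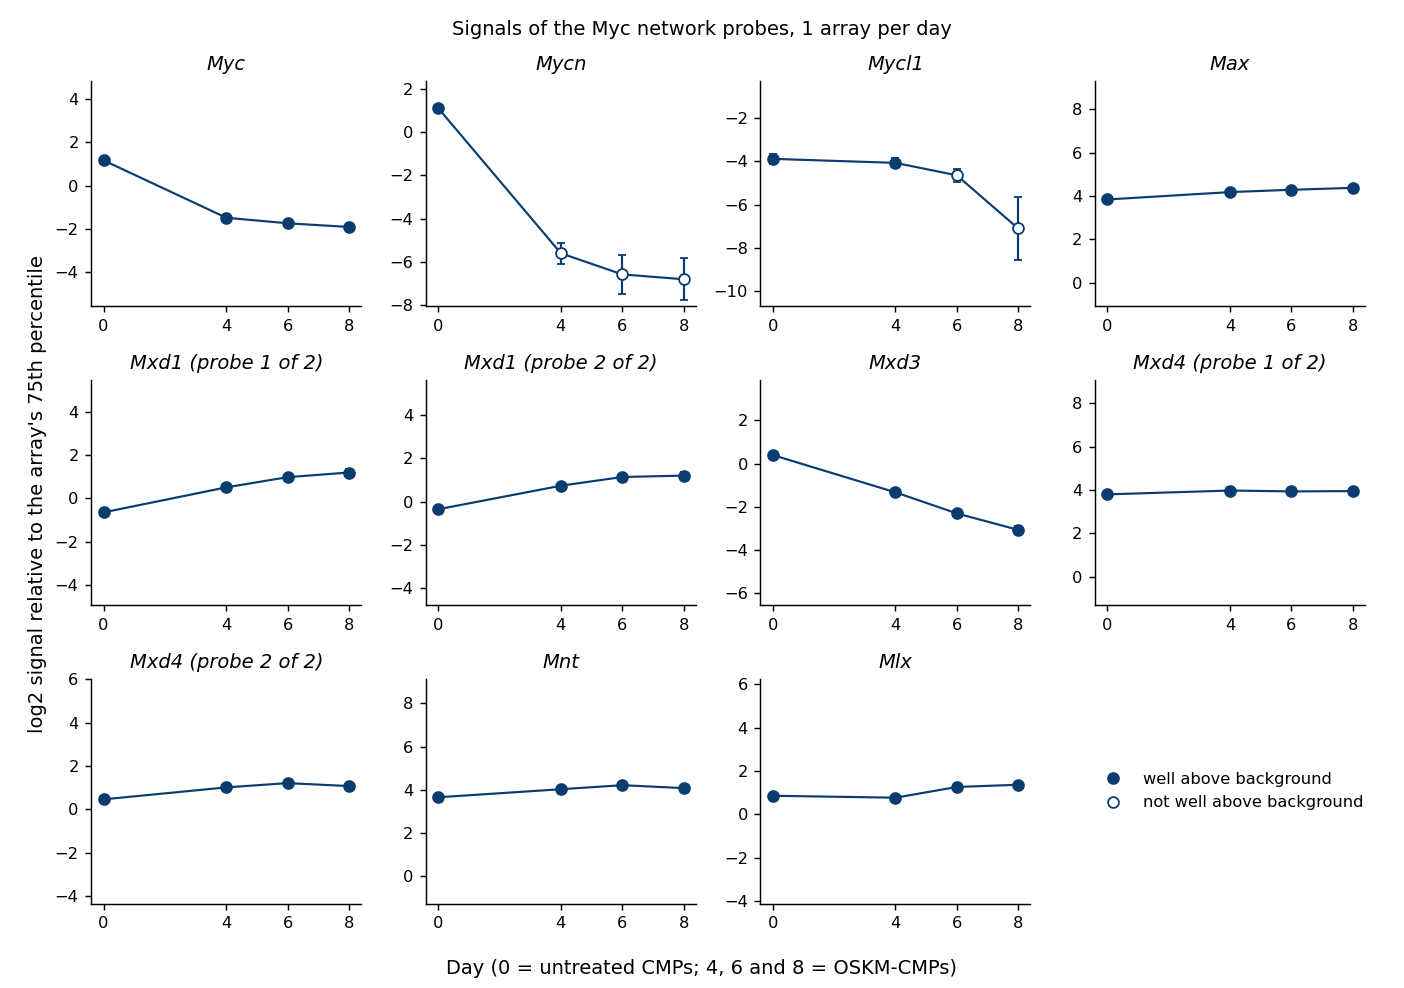
Log2 signal relative to the array's 75th percentile (y axis, the same span of log2 units in each panel) against day (x axis) for the 11 probes above background, 1 array per day, with bars of 1 SD from the scanner software's error model and open circles where a probe was not well above background. Myc drops between day 0 and day 4 and then changes little, Mxd3 falls at each step, both Mxd1 probes rise, and Mycn is below background from day 4.

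Mxd1 was the only 1 of the 4 measured Mxd and Mnt repressors that rose by 2-fold. It was read by 2 separate probes. The first (chr6:86597190-86597249, mm9, minus strand) gave 248.4, 552.0, 800.5 and 939.2, and the second (chr6:86599053-86599112, mm9, minus strand) gave 303.8, 644.2, 891.0 and 941.9. On both, the signal was higher on each later array, with the control the lowest and day 8 the highest. The last step, from day 6 to day 8, was within the error for the second probe (0.06 ± 0.20) and for the gene mean (0.140 ± 0.144). Their changes at day 8 were 1.84 and 1.56, and the mean for the gene was 1.12 ± 0.14 at day 4, 1.56 ± 0.14 at day 6 and 1.70 ± 0.14 at day 8. By day 4, 66.0% of the day 8 change was present, and Mxd1 rose by a further 0.58 ± 0.14 from day 4 to day 8. At day 8, 1328 genes (7.98%) rose further than Mxd1. The day 4 change was just under 2-fold with normexp correction (0.93) and with arrays scaled by their medians (0.98). Mxd1 minus Myc was 3.77 ± 0.21 at day 4, 4.46 ± 0.21 at day 6 and 4.78 ± 0.21 at day 8.

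Mxd3 went the opposite way to Mxd1. It is the Mxd gene known for expression in dividing cells, in S phase. Its probe (chr13:55427000-55427059, mm9, minus strand) gave 510.6, 154.4, 82.3 and 49.1, each day lower than the one before and all well above background. The change was -1.72 ± 0.21, -2.69 ± 0.21 and -3.46 ± 0.22, or 3.30-fold, 6.47-fold and 11.0-fold lower. Only 49.9% of the day 8 change was present at day 4, and the fall from day 4 to day 8 was -1.73 ± 0.22. Over that interval 163 genes (0.979%) fell further. With normexp correction the day 8 change was -2.43. Mxd1 minus Mxd3 widened from 2.84 ± 0.25 at day 4 to 5.15 ± 0.26 at day 8.

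Mxd4 and Mnt, the repressors that many cell types express at all times, differed from the control by less than 2-fold on every day. The first Mxd4 probe (chr5:34519323-34519382, mm9, minus strand) gave 5418, 6114, 6218 and 6350, and the second (chr5:34519276-34519335), which overlaps the first, gave 537.2, 785.7, 942.2 and 866.8. At day 8 the first changed by 0.15 and the second by 0.61. The gene mean was 0.36 ± 0.14, 0.44 ± 0.14 and 0.38 ± 0.14, with no further move after day 4 (0.02 ± 0.14). Mnt (chr11:74658915-74658974, mm9, plus strand) gave 4910, 6338, 7542 and 6945, with its highest value at day 6. It changed by 0.37 ± 0.20, 0.56 ± 0.20 and 0.42 ± 0.20. When arrays were scaled by their medians, the day 8 changes were 0.12 for Mxd4 and 0.16 for Mnt, both within the error.

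Mlx was level at day 4 and higher afterwards. Its signals were 708.1, 664.0, 979.1 and 1062 (chr11:100952426-100952485, mm9, plus strand), with the control and day 4 below days 6 and 8. The change was -0.09 ± 0.20, 0.41 ± 0.20 and 0.51 ± 0.20, and from day 4 to day 8 it was 0.60 ± 0.20. Median scaling gave 0.24 at day 8. Mxi1 had 1 probe (chr19:53450238-53450297, mm9, plus strand) with signals of 3.61, 4.68, 2.60 and 2.38, none well above background. This probe gives no change for Mxi1, and it does not show whether the transcript was present.

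**Figure D2:**
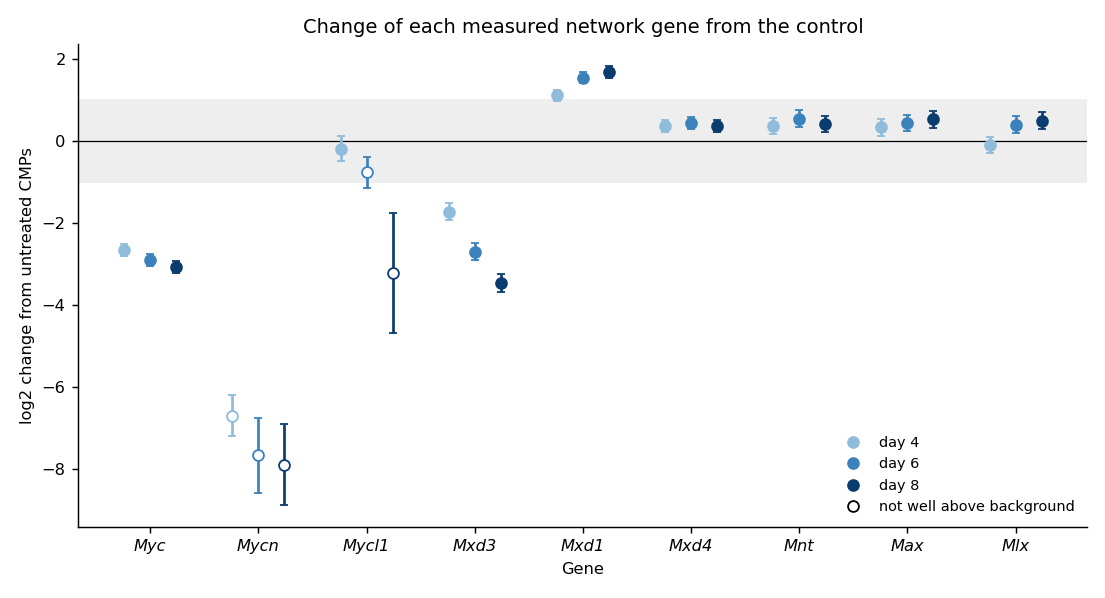
Log2 change from the CMP control (y axis) of the 9 measured genes (x axis) at days 4, 6 and 8, with bars of 1 SD from the scanner software's error model, open circles where the OSKM-CMP array was not well above background, and grey shading within 2-fold. Mxd1 lies above the shading on each day, Myc, Mycn and Mxd3 lie below it, and Mxd4, Mnt, Max and Mlx stay inside it.

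The network genes differ in whether their own promoters carry the E-box. The window searched ran from 250 bases before to 50 after the gene start (RefSeq, GRCm38.p6), and CACGTG reads the same on both strands. It was present in 4 of the 9 network genes with a window (44.4%; Myc has none), against 2187 of 27025 genes (8.09%), or 2349 of 32851 windows (7.15%). The 4 were Mxd4, Mnt, Mlx and Max, all within 2-fold of the control at each day. They are shown with the E-box in capitals, whose first base lies 219, 123, 40 and 3 bases before the gene start, in that order.
Mxd4 (chr5:34187912-34187941, minus strand): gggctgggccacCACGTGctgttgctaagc
Mnt (chr11:74830789-74830818, plus strand): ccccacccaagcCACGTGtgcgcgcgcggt
Mlx (chr11:101087238-101087267, plus strand): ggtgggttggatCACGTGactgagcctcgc
Max (chr12:76962234-76962263, minus strand): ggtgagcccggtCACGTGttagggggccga
The windows of Mycn, Mycl1, Mxd1, Mxd3 and Mxi1 do not hold these letters.

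The Mycn window carries TTTGGCGC, a form of the site of E2F factors, in 2 copies on the gene strand. This motif was searched on both strands after the sequence had been read. It is in 158 of the 27025 genes (0.585%) and in no other network gene with a window. Since the motif was chosen from this sequence, these shares are no test of it, and a link to the fall of Mycn was not tested. The stretch is shown because it holds both copies, which are in capitals, with the first starting 183 bases before the gene start.
Mycn (chr12:12941985-12942031, minus strand): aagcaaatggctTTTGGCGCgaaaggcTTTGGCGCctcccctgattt
These matches describe sequence only.

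Of the relatives outside the 10 genes, Mlxipl (ChREBP), which pairs with Mlx to turn on glycolytic and lipogenic genes, had the highest mean change at day 8, from 2 probes that disagree. Its first probe gave 715.2, 915.5, 1200 and 1375, and its second gave 40.9, 54.6, 288.0 and 509.5. Both were highest at day 8, but the first rose by 0.87 ± 0.20 and the second by 3.56 ± 0.23. The gene mean was 0.39 ± 0.16 at day 4 and 2.21 ± 0.15 at day 8. Mga, a large repressor that pairs with Max, gave 260.4, 370.5, 512.6 and 668.3 and changed by 0.51 ± 0.20 at day 4 and 1.28 ± 0.20 at day 8. The day 4 changes of Mga and Mlxipl differed by less than their errors. At day 8 the change of Mga lay between those of the 2 Mlxipl probes. Of this list of 4, Mlxip moved under 2-fold and Mycs was not well above background. Bmyc, a short Myc paralog named after its values were seen, gave 1383, 1836, 2082 and 2128.

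Genes for proteins that work with the network at DNA mostly stayed within 2-fold at day 8, as did most of all measured genes. Of all genes, 14.4% were higher and 11.6% lower at day 8. Of 18 measured co-activators of Myc, 1 was higher by 2-fold at day 8 (5.56%) and 0 lower, with a median of -0.20. The 1 was Brd8, a bromodomain subunit of the Tip60 acetylase complex, at 1.37 ± 0.17. Of 10 co-repressors of Mxd and Mnt, 0 passed 2-fold in either direction and the median was -0.54. Sap18, a subunit of the Sin3 complex, changed by -0.84 ± 0.20 and the corepressor Ncor1 by 0.45 ± 0.10. Among 16 genes for Myc protein turnover, 1 was past 2-fold at day 8 (6.25%, lower), and the median was 0.02. It was the mitotic kinase Aurka, which protects N-Myc from degradation, at -2.45 ± 0.20.

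Other factors that bind E-boxes were also read. Of 12 measured, 1 was higher (8.33%) and 2 were lower (16.7%) at day 8, beside 14.4% and 11.6% of all genes, with a median of -0.16. Bhlhe40, a repressor tied to the circadian clock, gave 1364, 177.3, 228.2 and 231.6, a change of -2.64 ± 0.20. Tfec, a factor of the MiT family, changed by -2.24 ± 0.34. The higher one was Srebf1, the main switch of fatty acid synthesis, named after its values were seen. It gave 225.5, 173.5, 546.2 and 831.2, below the control at day 4 and above it at days 6 and 8, with a day 8 change of 1.80 ± 0.20.

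Genes that Myc is known to activate, in 6 lists with 118 measured genes, were mostly within 2-fold, as were most of all genes. At day 4, 1 was higher (0.847%) and 7 were lower (5.93%), beside 12.1% and 9.57% of all genes. At day 6, 1 was higher (0.847%) and 16 were lower (13.6%), beside 13.0% and 11.5% of all genes. At day 8, 2 were higher (1.69%) and 19 were lower (16.1%), beside 14.4% and 11.6% of all genes. The median was -0.03, -0.07 and -0.21 on these days, beside the median of all genes near 0. From day 4 to day 8, 0 were higher and 2 lower by 2-fold (1.69%), beside 4.93% and 4.10% of all genes. The promoter E-box was in 28 of the 101 of these genes with a window (27.7%).

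Ribosome biogenesis, the best known output of Myc, stayed mostly within 2-fold on the arrays where the mouse Myc probe was 6.28-fold to 8.44-fold lower. Whether that probe reads the delivered c-MYC was not tested, so the total Myc on these arrays is not known. Of 37 measured genes, 0 were higher and 1 was lower at day 8 (2.70%), beside 14.4% and 11.6% of all genes. The median went from 0.11 at day 4 to 0.06 at day 6 and -0.11 at day 8 (0.02 with quantile normalization, the opposite sign). The lower one was Las1l, which processes a spacer of the ribosomal RNA precursor, at -1.32 ± 0.20. Nucleolin (Ncl) changed by 0.72 ± 0.14 and the RNA polymerase I subunit Polr1b by 0.73 ± 0.20. The 14 mitochondrial and chaperone genes and the 11 translation genes had 0 past 2-fold at day 8, beside the same shares of all genes. Their day 8 medians were 0.10 and -0.34.

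Glycolysis and amino acid supply had the lowest median of these lists. Of 15 measured genes, 1 was lower at day 4 (6.67%), 5 at day 6 (33.3%) and 8 at day 8 (53.3%). Of all genes, 9.57%, 11.5% and 11.6% were lower on these days. The medians of the list were -0.64, -0.80 and -1.02, and 0 of its genes were higher, beside 12.1%, 13.0% and 14.4% of all genes. Phgdh, the entry to serine synthesis, gave 13281, 8231, 6625 and 4930, a change of -1.51 ± 0.14. Pyruvate kinase Pkm changed by -1.49 ± 0.20 and lactate dehydrogenase Ldha by -1.36 ± 0.12. The glutamine carrier Slc1a5 changed by 0.84 ± 0.14.

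Of 23 nucleotide, polyamine and one-carbon genes, 1 was higher (4.35%) and 3 were lower at day 8 (13.0%, near the 11.6% of all genes), with a median of -0.32. The mitochondrial folate enzymes Mthfd2 and Shmt2 changed by -1.83 ± 0.20 and -1.43 ± 0.20, and CTP synthase Ctps by -1.09 ± 0.20. The folate carrier Slc19a1 changed by 1.02 ± 0.15. Ornithine decarboxylase Odc1, a classic direct target of Myc, changed by 0.61 ± 0.10 at day 4 and 0.37 ± 0.10 at day 8.

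Cell cycle genes held the deepest day 8 fall of the lists of activated targets. Of 18 measured, 5 were lower at day 4 (27.8%) and 7 at days 6 and 8 (38.9%). Of all genes, 9.57% were lower at day 4, 11.5% at day 6 and 11.6% at day 8. At day 8, 1 was higher (5.56%, beside 14.4%), and the median was -0.22. The mitotic kinase Plk1 gave 15036, 4376, 2509 and 1380, falling on each day as Mxd3 did, with a day 8 change of -3.52 ± 0.20. Mcm5, a subunit of the replicative helicase, changed by -2.71 ± 0.20 and Cks2, a partner of cyclin-dependent kinases, by -1.86 ± 0.20. The higher one was E2f2, at 1.01 ± 0.20.

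Of 15 measured genes that Myc is known to repress, 4 were higher (26.7%) and 2 lower (13.3%) at day 8, beside 14.4% and 11.6% of all genes, and the median was 0.26. The lower share is near that of all genes. The cyclin-dependent kinase inhibitor Cdkn1c gave 103.9, 5648, 5578 and 2802, a change of 5.77 ± 0.21 at day 4 and 4.68 ± 0.21 at day 8. Cebpa, an adipogenic factor, changed by 2.31 ± 0.20, 3.41 ± 0.20 and 3.15 ± 0.20, and Ndrg1, a stress and differentiation gene, by 2.08 ± 0.20 at day 8. The fourth was the inhibitor Cdkn2b at 1.06 ± 0.14, named after its values were seen. Hes1, a target of Notch, gave 853.1, 28.6, 125.8 and 153.9, its lowest value at day 4, and Thbs1 changed by -1.19 ± 0.20 at day 8. When arrays were scaled by their medians, the medians of all genes and of every list at day 8 moved by -0.27, and those of the repressed, the mitochondrial and the turnover genes were then below 0.

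**Figure D3:**
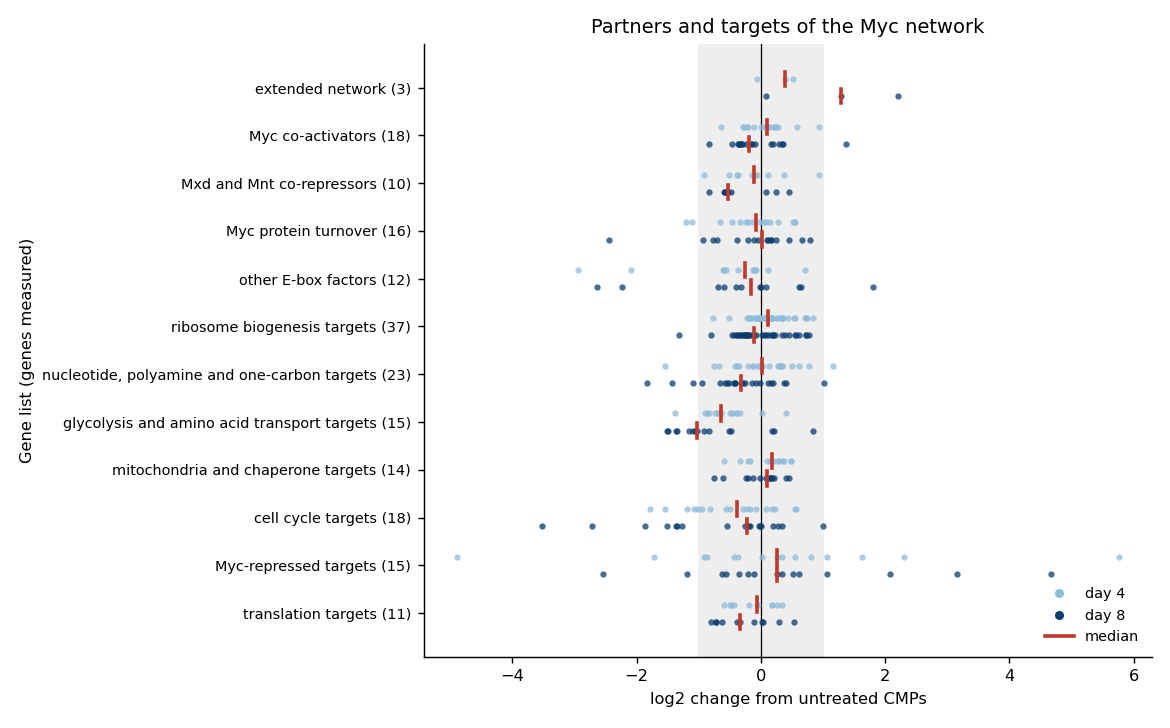
Log2 change from the CMP control (x axis) of each measured gene at days 4 and 8 in the 12 gene lists (y axis, genes measured in parentheses), with a red bar at the list median and grey shading within 2-fold. The glycolysis and amino acid list has the lowest day 8 median (-1.02), the ribosome biogenesis genes lie around 0, and the Myc-repressed list spans the widest range on both days.

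Markers of other cells changed along with the network, and their part in its changes was not tested. In bulk RNA, fewer cells of a type and less RNA per cell cannot be told apart. The summed signal of the 5 measured adipocyte markers, in multiples of the array's 75th percentile, was 2.47, 19.5, 126.8 and 317.8. All 5 were higher by 2-fold at days 6 and 8, beside 13.0% and 14.4% of all genes. At day 4 the 5 means were also past 2-fold, beside 12.1% of all genes. However, Cidec was not well above background on 1 of its 2 probes, and the other gave a rise of at least 1.63-fold. Fabp4 gave 943.5, 7315, 26777 and 54886, and Adipoq was at least 2165-fold higher at day 8. Of 5 endothelial markers 3 were lower at day 8 (60.0%, beside 11.6% of all genes), and the sum of the 5 was 1.88, 1.09, 1.18 and 1.06. Cdh5 and Emcn were not well above background in OSKM-CMPs, while Pecam1 was level at 58.2, 50.1, 59.1 and 66.0. Kdr was bright and level on 1 probe, at 4579, 4747, 5125 and 4738. Its other probe was dim, at 33.4, 24.9, 29.3 and 24.9, and the sum takes the mean of both on the log2 scale. The sum of 5 leukocyte markers was 0.479, 0.662, 0.740 and 0.798, with the leukocyte antigen Ptprc between 8.30 and 17.6, near background. At day 8, 2 were higher (40.0%) and 1 was lower (20.0%), beside 14.4% and 11.6% of all genes. The lower one was Tyrobp, named after its values were seen. It was above background only in the control, at 15.5, so its fall is a bound of at least 1.57-fold, under 2-fold. The sum of 4 cardiomyocyte markers was 11.9, 4.54, 6.63 and 4.04, and most of it was Tnnt2. Tnnt2 gave 4604, 1714, 2635 and 1602 and was the 1 lower at day 8 (25.0%, beside 11.6% of all genes). Myh6, the 1 higher at day 8 (25.0%, beside 14.4%), and Ryr2 and Nppa were dim, with signals of 6.24 to 25.0 on their kept probes. Myh6 was not well above background in the control, so its rise is a bound of at least 1.75-fold, under 2-fold. Of the 6 CMP markers all were well above background on every array, and their sum was 352.5, 244.8, 246.9 and 290.2. This sum mixes a fall and a rise of its brightest genes. Thy1 gave 104883, 29516, 27805 and 32241, while Ly6a gave 9791, 40029, 50651 and 66890. At day 8, 3 of the 6 CMP markers were lower by 2-fold, beside 11.6% of all genes. The 1 higher (16.7%) is near the 14.4% of all genes. It was Ly6a, which encodes the Sca-1 used to isolate the cells, at 2.69 ± 0.20.

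The mouse genes of the other delivered factors were read on the same arrays. Whether their probes read the delivered sequences was not tested, so they do not show the level of those factors. The probes of Pou5f1 (Oct4) and Sox2 were not well above background on any array, with signals of 5.46 to 13.6 and 2.28 to 2.49. The mouse Klf4 probe gave 8413, 4424, 5110 and 5073, lower in all OSKM-CMPs, with a day 8 change of -0.81 ± 0.20 that did not reach 2-fold.

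**Figure D4:**
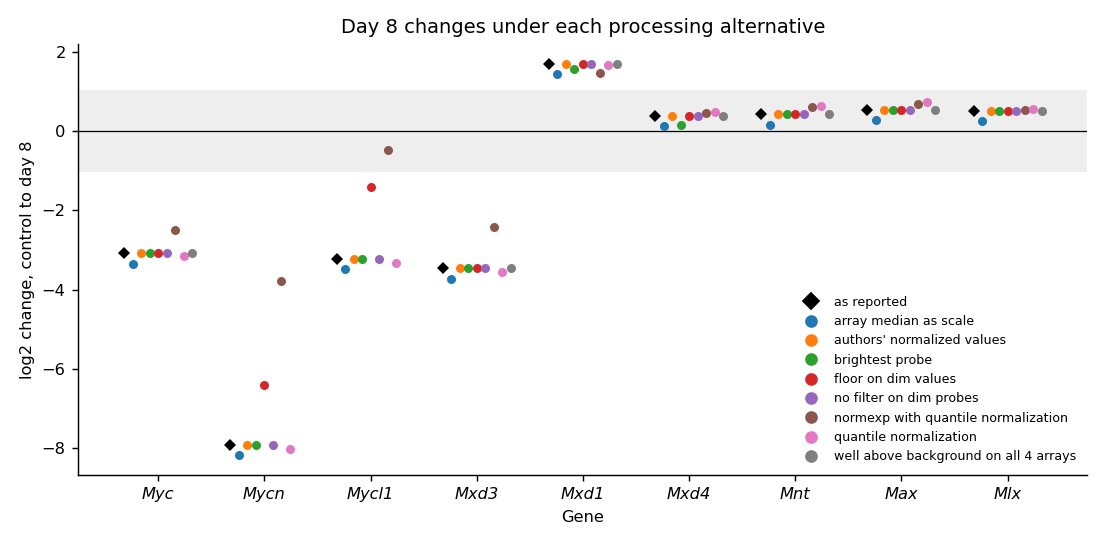
Log2 change from the CMP control to day 8 (y axis) of the 9 measured genes (x axis) as reported (black diamonds) and under the 8 processing alternatives (coloured circles), with grey shading within 2-fold. No gene changes sign, Myc lies between -3.34 and -2.51 and Mxd1 between 1.43 and 1.70, and the dim Mycn and Mycl1 spread the most, with no point for them where all 4 arrays had to be above background.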

How the data were processed

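RNA of 1 sample per condition, grouped by the time point in the labels, was labelled with Cy3 by the authors (250 ng each) and hybridised to Agilent arrays. The authors deposited, per the file headers, Feature Extraction 10.7.3.1 intensity files (the labels name 9.5.3), with background-subtracted processed signals, their errors and flags. They also deposited a log2 table, which per the study's methods was normalized in GeneSpring and in which each array is the log2 processed signal shifted by a constant; it served as an alternative. All 4 arrays came from 1 scan, and the number of arrays limits the precision.

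Control spots were left out, as were 87 to 106 outlier spots per array, and 0 spots were saturated. Log2 processed signals of a probe's spots were averaged and the array's 75th percentile subtracted. From 56.5% to 59.6% of probes per array were well above background. Those above it at least once (35532) were kept, and 28782 passed on all 4. A gene was the mean of its kept probes. Genes were named through RefSeq (GRCm38.p6, names and promoter sequences), with 24462 probes unmatched, and probe positions are those of the files (mm9). A bound sets the bright signal against the higher of the dim probe's own signal and the lowest signal well above background on its array. Differences of genes from control to day 8 had a median error of 0.20 (log2), and the median SD between spots of a probe was 0.083 to 0.085.

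The members and the gene lists, written by hand from general knowledge, were chosen with earlier results of these data known. Of each list, up to 3 genes with the largest rise and up to 3 with the largest fall at day 8 could be named, if well above background on the first and last arrays with the same sign of change at days 4, 6 and 8. No test between conditions was made. The alternatives were scaling by array medians, quantile normalization with and without a prior normexp correction (offset 50), the authors' log2 values, keeping every probe, keeping probes above background on all arrays, setting dim values to a floor, and taking a gene's brightest probe. The averaging of probes into genes and the 2-fold count were also run on simulated data with planted changes. Its noise was the same at every signal, so that run says nothing about dim probes, the bounds or the sequence search. Python 3.11.15, numpy 2.4.6, pandas 2.3.3, matplotlib 3.10.9, R 4.3.3 and limma 3.58.1 were used.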

Additional observations from a re-analysis of the deposited data

How the results depend on the processing

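No paired analysis was possible because only single arrays were measured. Across the 8 alternatives, the 27 changes of network genes gave 210 values, all with the sign reported. Of these, 123 moved by less than 0.01, most of them because the alternative leaves that gene's probes as they are, so the number that held says little. In all, 27 moved by more than their error. Normexp with quantile normalization took Mxd1 at day 4 to 0.93 (0.98 with array medians) and Mycl1 at day 8 to -0.48, both under 2-fold. It took Mycn at day 8 to -3.78, and it counted 6.43% of all genes as higher and 6.66% as lower at day 8 in place of 14.4% and 11.6%. With probes well above background on all 4 arrays, 2 network genes were at least 2-fold lower at day 8 in place of 4, since Mycn and Mycl1 were not kept. Of the 14519 genes kept there, 10.25% were lower. A floor on dim values gave -6.41 for Mycn and -1.42 for Mycl1. The median of the extended network list (1.28) became 1.05 with normexp, 1.02 with the array median, 0.68 with no filter and 0.87 with the brightest probe. Scaling by array medians put the median of all genes at day 8 at -0.30, and 11.3% of genes were higher and 16.9% lower. The day 8 list medians were then -0.46 for co-activators, -0.80 for co-repressors, -0.24 for turnover, -0.43 for other E-box factors, -0.38 for ribosome biogenesis, -0.59 for nucleotide, polyamine and one-carbon genes, -1.29 for glycolysis and amino acid transport, -0.16 for mitochondria and chaperones, -0.49 for the cell cycle, -0.0055 for repressed genes, -0.60 for translation and -0.47 for all activated targets, each lower by the same shift as all genes. The turnover median also turned with quantile normalization (-0.01) and no filter (-0.05), and that of ribosome biogenesis with quantile normalization (0.02). Signal over background limits Mycn from day 4 and Mycl1 from day 6.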
